A study of Bos taurus with 8 samples.

Results

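The PAX genes encode transcription factors that bind DNA through a paired domain, and each works in a few embryonic lineages: the vertebral column, thymus and teeth, the kidney, ear and thyroid, the B cell, muscle and neural crest, or the eye and pancreas. Their promoters often lie in stretches rich in CpG, the dinucleotide at which vertebrate DNA is methylated. In cells that do not use such a developmental gene, a CpG-rich promoter is commonly held silent by Polycomb proteins without DNA methylation, whereas gene bodies are commonly methylated. The members were found by symbol, PAX1 to PAX9, in the deposited window tables. All 9 were present. They covered 204 windows of 3 kb, of 902984 windows in all and 354832 windows that carried a gene symbol, and they were 9 of 26227 genes with a symbol at one place. Windows are numbered here from the 5′ end of the gene by its strand, so that window 1, the first window, is the one that holds or lies nearest to the annotated start.

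MIRA-Seq, the sequencing of DNA fragments that methyl-CpG binding proteins pull down, was done on un-treated dermal fibroblasts of 4 Holstein and 4 Angus heifers of the same age, with 1 culture and 1 library per animal at passage 5. Holstein is a dairy breed and Angus a beef breed, and the study asked whether methylation differs between their fibroblasts. The cultures were grown from shoulder skin. Breed and rearing cannot be told apart in this design, because calves of the breeds are commonly raised in different ways.

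The 8 libraries held 18691111 to 35525554 reads in windows, a median of 3 to 12 reads per window. Levels are given as CPM, the reads of a window scaled to the total over all windows of that library. At this depth 3 reads, taken as the smallest count told from 0, corresponded to 0.0844 to 0.161 CPM. Holstein 1 and Angus 3 stood apart: the 1% of windows with most reads held 69.0% and 72.4% of their reads, against 46.8% as the lowest share, and their mean over the PAX windows, without windows 5 and 6 of PAX2, was 0.604 and 0.533 CPM, against 0.813 to 0.958 CPM in the other 6 libraries. The TMM factors of edgeR, which rescale for this, were 0.817 and 0.677 in these libraries. Reads of methylated DNA do not show which genes a cell uses, so the label of dermal fibroblast could not be checked by expression here. The study also sequenced RNA of the same cultures, and that RNA was not used here. It lists PAX2 RNA, at a low level, as many-fold higher in Holstein than in Angus cultures, un-treated and early after bacterial lipopolysaccharide. It also lists PAX6 RNA, with the breeds combined, as lower early after lipopolysaccharide than before it. As a description, the first windows of 12 fibroblast marker genes had a median of 0.260 CPM, and those of 7 keratinocyte, 4 endothelial, 4 melanocyte and 4 leukocyte marker genes had medians of 0.680, 0.544, 0.902 and 0.386 CPM.

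Pooled over genes, the PAX windows held more reads than the PAX first windows, though PAX6, PAX8 and PAX9 went the other way and PAX3 was level. PAX3, PAX5 and PAX7 make up most of the pooled windows. The median over the 204 PAX windows was 0.533 CPM, against 0.339 CPM over all windows with a gene symbol. The median over the 9 first windows was 0.396 CPM, against 0.395 CPM over the first windows of all 26227 genes. PAX windows with a coding exon (58) had a median of 0.813 CPM and those without one (146) a median of 0.479 CPM. Over all genes the corresponding medians were 0.474 and 0.302 CPM. A pull-down count rises with the number of CpGs in a window as well as with their methylation, so levels of different windows compare reads and not degrees of methylation.

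**Figure D1:**
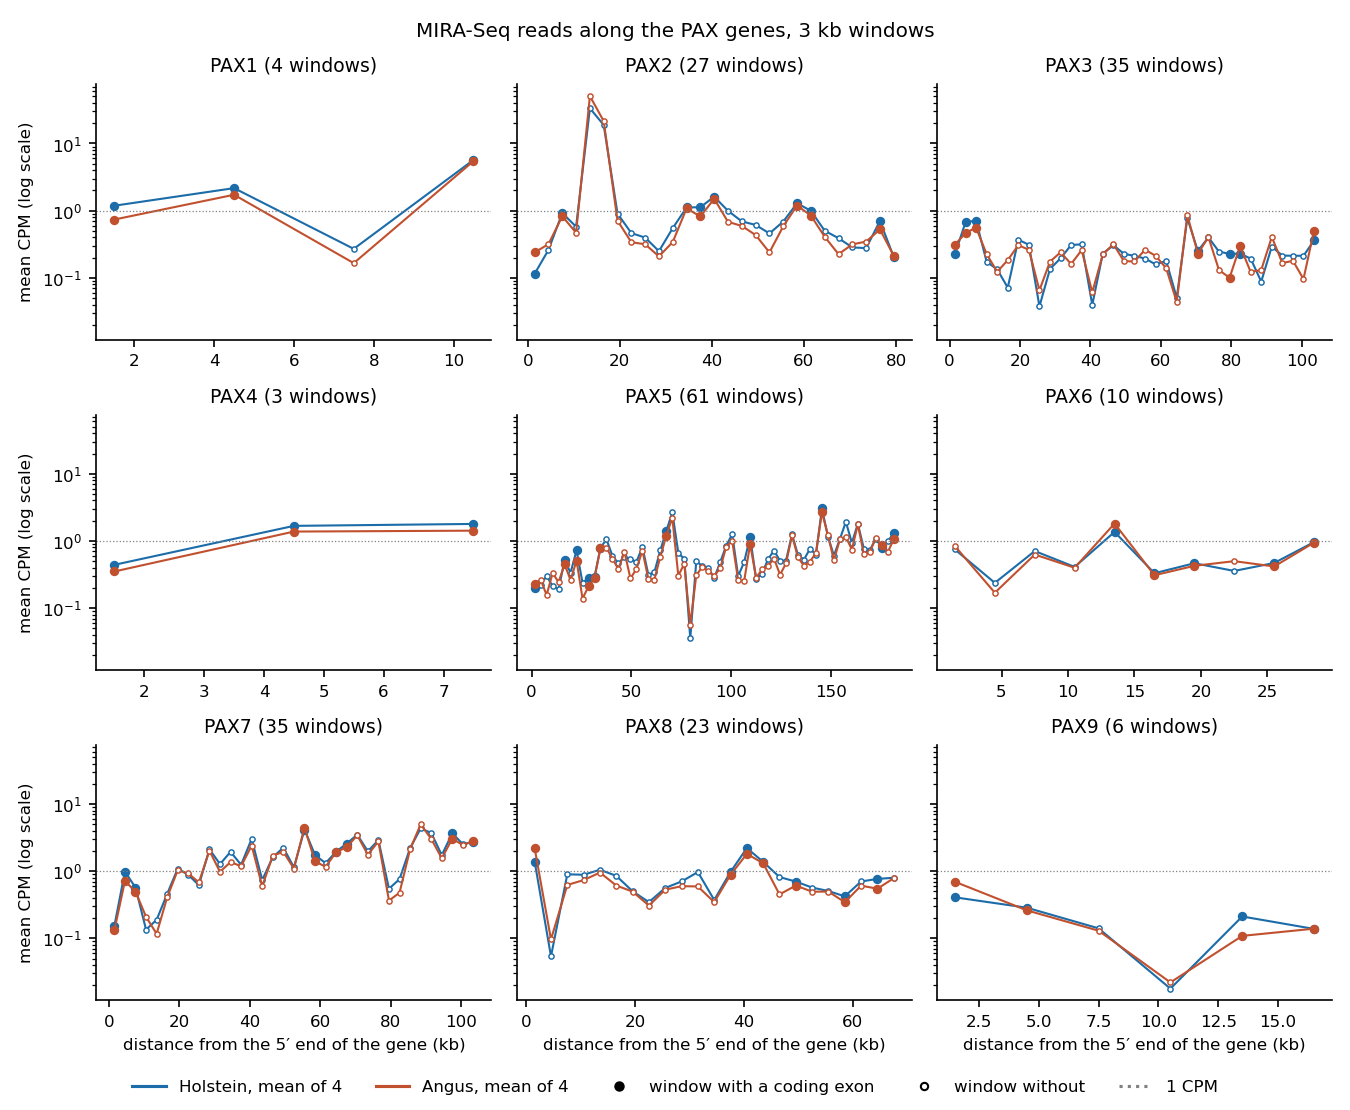
Mean CPM (log scale) of the 4 Holstein and the 4 Angus cultures in each 3 kb window of the 9 PAX genes, against the distance in kb from the 5′ end; filled points are windows with a coding exon and the dotted line is 1 CPM. The lines of the breeds lie close together, PAX7 and PAX5 lie higher away from the 5′ end, PAX2 has a peak in 2 windows without a coding exon, and PAX8 and PAX9 are high in the first window.

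PAX1 and PAX9 form one subfamily, with roles in the sclerotome, which gives rise to the vertebrae, and in the pharyngeal pouches, and their read patterns ran in opposite directions. PAX1 spans 4 windows at chr13:41246397-41258396 (UMD v3.1, plus strand). Its first window, with exon 1, held 0.506, 1.17, 1.40 and 1.66 CPM in the Holstein cultures (1 to 4, the order used throughout) and 0.803, 0.834, 0.403 and 0.910 CPM in the Angus cultures. Its last window, with coding exon 5, held 5.57 ± 1.37 CPM (SD, n = 8), the highest level of any PAX window outside PAX2, and ranged from 3.86 to 7.76 CPM. That window took 64.1% of the reads of the gene. The mean over the 4 windows was 2.17 ± 0.577 CPM, at the 89.1st percentile of all genes.

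PAX9, which is required for teeth and palate, spans 6 windows at chr21:47291163-47309162 (plus strand) and was the PAX gene with the fewest reads. Its whole span held 10, 36, 28 and 60 reads in the Holstein cultures and 56, 39, 28 and 22 reads in the Angus cultures. The mean over its windows was 0.213 ± 0.0766 CPM (SD, n = 8), at the 17.5th percentile of all genes. In contrast to PAX1, its highest window was the first, with exon 1, at 0.552 ± 0.223 CPM. None of its windows reached a mean of 1 CPM, and none passed the filter for the breed test.

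PAX2, PAX5 and PAX8 form a second subfamily. PAX2, a regulator of kidney, optic nerve and inner ear, spans 27 windows at chr26:21468031-21549030 (plus strand). Its first window was nearly empty, with 2, 2, 2 and 7 reads in the Holstein cultures and 5, 15, 3 and 3 reads in the Angus cultures, a mean of 0.177 ± 0.146 CPM. Windows 5 and 6 (chr26:21480031-21486030), which hold no coding exon, reached 42.0 ± 18.2 and 20.2 ± 8.55 CPM. Window 5 held 36.4, 23.8, 43.1 and 30.3 CPM in the Holstein cultures and 51.9, 48.7, 78.5 and 23.6 CPM in the Angus cultures. All 8 libraries showed these stacked reads, and the breeds overlapped.

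The 2 stacked windows of PAX2 held 78.8% ± 8.84 of the reads of the gene (SD, n = 8), between 61.9% and 91.2%. The coverage of single bases there reached 777 and 877 reads, and only 772 of 354832 windows with a gene symbol (0.218%) exceeded a coverage of 100 in any library. How duplicate reads and reads that match several places were handled is not given in the sources used here, and the part of either in the stack was not tested. With all windows PAX2 had a mean of 2.86 ± 0.783 CPM and stood at the 93.3rd percentile of genes. Without the 2 windows its mean was 0.603 ± 0.136 CPM, at the 54.7th percentile, and its level was 0.456 CPM in windows 1 to 11, 0.827 CPM in windows 12 to 19, which hold exons 4 to 6, and 0.544 CPM in windows 20 to 27.

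PAX5, which commits lymphoid precursors to the B cell fate, is the longest member, with 61 windows at chr8:61399187-61582186 (minus strand). Its levels were ordered along the gene. The mean was 0.420 ± 0.123 CPM over windows 1 to 21, 0.636 ± 0.141 CPM over windows 22 to 41 and 0.981 ± 0.182 CPM over windows 42 to 61. The libraries ranged from 0.208 to 0.536 CPM in the windows nearest the 5′ end and from 0.699 to 1.21 CPM in those farthest from it, with no overlap. The first window, with exon 1, was among the lowest parts, at 0.212 ± 0.0792 CPM, and held between 2 and 9 reads per library. The highest was window 49, with exon 8, at 2.85 ± 0.371 CPM and between 2.32 and 3.39 CPM in every library.

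PAX8, which drives the thyroid follicular cell and takes part in kidney formation, spans 23 windows at chr11:46782685-46851684 (minus strand) and had the highest first window of the family. That window (chr11:46848685-46851684, exon 1) held 0.961, 1.43, 1.7 and 1.46 CPM in the Holstein cultures and 1.82, 2.75, 1.18 and 3.05 CPM in the Angus cultures. The mean of 1.79 ± 0.738 CPM stood at the 89.9th percentile of all first windows. The adjoining window 2 was nearly empty, at 0.0752 ± 0.0807 CPM, with no read in Holstein 3 and Angus 3, where a count of 0 allows up to the 3-read limit. A second high stretch lay at window 14, with exon 3, at 2.01 ± 0.384 CPM. The mean over all windows was 0.758 ± 0.165 CPM.

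PAX3 and PAX7, the pair that marks muscle precursors and neural crest, both span 35 windows on chromosome 2 but differed in level. PAX3, which acts in the neural crest and in migrating limb muscle precursors, lies at chr2:111127134-111232133 (minus strand) and was low throughout. Its mean was 0.250 ± 0.0791 CPM, at the 23.0th percentile of genes. It lay flat along the gene, at 0.267, 0.245 and 0.237 CPM in windows 1 to 12, 13 to 24 and 25 to 35. No window passed the filter for the breed test, and the highest, window 23 without a coding exon, held 0.814 ± 0.153 CPM.

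PAX7, the transcription factor of muscle satellite cells, lies at chr2:134512334-134617333 (minus strand), and its mean over windows was 1.73 ± 0.295 CPM, at the 84.2nd percentile. It held 1.45, 1.85, 1.86 and 2.02 CPM in the Holstein cultures and 1.59, 1.83, 1.18 and 2.02 CPM in the Angus cultures. Every library lay above the highest PAX3 value of 0.355 CPM. The reads lay away from the 5′ end: windows 1 to 12 held 0.813 ± 0.160 CPM, windows 13 to 24 held 2.03 ± 0.370 CPM and windows 25 to 35 held 2.38 ± 0.403 CPM. No library overlapped between the first and the last of these stretches, at most 0.981 and at least 1.66 CPM. The first window, with exon 1, had the lowest mean of the 9 first windows, 0.142 ± 0.0701 CPM, with 2, 2, 6 and 7 reads in the Holstein cultures and 5, 3, 1 and 4 reads in the Angus cultures. The highest was window 30, without a coding exon, at 4.66 ± 1.05 CPM.

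PAX4 and PAX6 form the last subfamily. PAX4, needed for the insulin-producing beta cell, spans 3 windows at chr4:92640605-92649604 (minus strand), each of which holds a coding exon. It held 0.396 ± 0.182 CPM in the first window, with exon 2, and 1.61 ± 0.488 CPM in window 3, with exon 11. PAX6, a leading regulator of eye formation, spans 10 windows at chr15:63356257-63386256 (minus strand). Its first window, which holds no coding exon, had 0.790 ± 0.276 CPM, and its highest, window 5 with exon 1, had 1.59 ± 0.575 CPM. The mean over its windows was 0.624 ± 0.164 CPM.

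Ordered by the first window, PAX8 came first, followed by PAX1, PAX6, PAX9, PAX4, PAX3, PAX5, PAX2 and PAX7. Of the 8 neighbouring pairs only PAX8 and PAX1 differed beyond their spread, by 0.832 CPM with PAX8 above in 7 of the 8 cultures (two-sided exact sign-flip test, unadjusted p = 0.0156). In the other 7 pairs the unadjusted p by the exact sign-flip permutation test was 0.0625 or larger. Ordered by the mean over windows, the series ran PAX2, PAX1, PAX7, PAX4, PAX8, PAX5, PAX6, PAX3 and PAX9. Here 5 of the 8 pairs differed with the same direction in 8 of 8 samples (exact sign-flip permutation test, unadjusted p = 0.00781, the smallest that 8 samples allow): PAX1 above PAX7, PAX7 above PAX4, PAX4 above PAX8, PAX8 above PAX5, and PAX6 above PAX3. PAX2 and PAX1, PAX5 and PAX6, and PAX3 and PAX9 did not differ beyond their spread. Both orders were taken from the values then tested, and how often other pairs of genes differ in this way was not computed. PAX2 owed its place to its stacked windows, without which its mean of 0.603 CPM lay below that of PAX6.

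**Figure D2:**
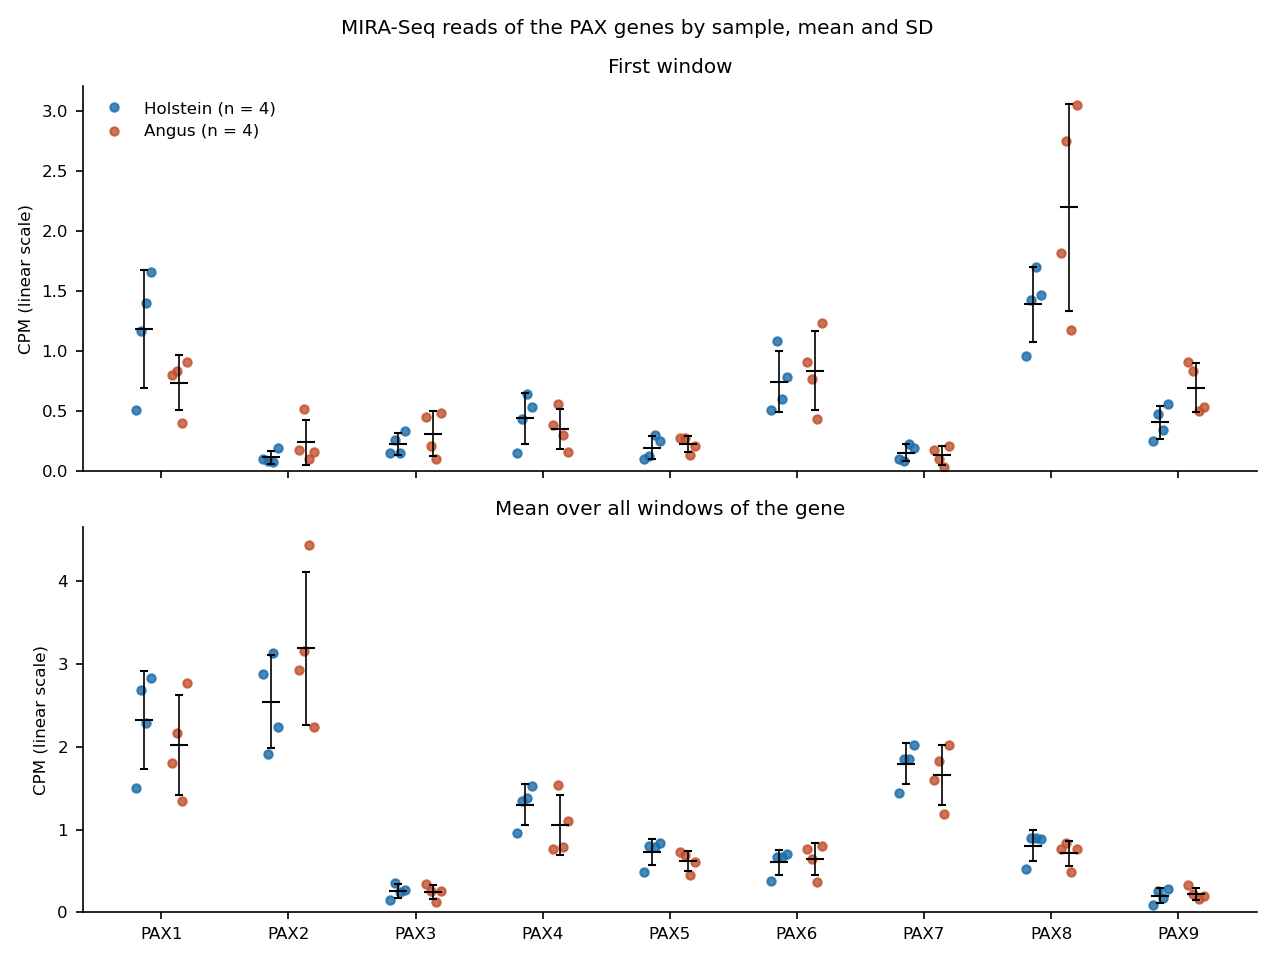
CPM of each of the 8 cultures in the first window (top) and averaged over all windows of the gene (bottom) for the 9 PAX genes, on linear axes, with the mean and SD of each breed (n = 4). The points of the breeds overlap in every gene on both measures, PAX8 has the highest first window at 0.961 to 3.05 CPM, and PAX2 and PAX1 have the highest means over windows.

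Whether the first window held fewer or more reads than the rest of the gene was asked within each sample, as the log2 ratio of its CPM to the mean CPM of the other windows, with 0.1 CPM added to both. A gene was called when the ratio differed from 0 at FDR < 0.1 (exact sign-flip permutation test over the 8 samples, Benjamini-Hochberg over 16584 genes) and by at least 2-fold. The first window was lower in 5 PAX genes and higher in 2, against 31.2% and 7.91% of all genes tested, so most genes of the family followed the commoner direction. The median ratio over the 9 genes was -1.35, and over all genes tested it was -0.50. The count stayed at 7 without Holstein 1 and without Angus 3.

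The 5 genes with a low first window were PAX2 at -3.55 ± 0.69 (SD, n = 8), PAX7 at -2.99 ± 0.31, PAX4 at -1.80 ± 0.55, PAX1 at -1.41 ± 0.37 and PAX5 at -1.35 ± 0.31. All had lower first windows in 8 of 8 samples (exact permutation test, p = 0.00781, FDR = 0.0129). PAX2 without its stacked windows was at -1.48 and remained called. PAX7 ranged from -3.43 to -2.61 over the cultures. The size in genes with nearly empty first windows depends on the CPM added: PAX7 was at -1.82 with 0.5 CPM and -3.59 with 0.02 CPM, and PAX2 at -2.35 and -4.11. With the median of the other windows PAX2 was at -1.33. With 0.5 CPM added in place of 0.1, PAX5 lost its call at -0.73, and with the median of the other windows PAX1 lost its call at -0.96.

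PAX8 and PAX9 went the other way, with first windows above the rest of the gene by 1.16 ± 0.50 and 1.38 ± 0.47 on the log2 scale in 8 of 8 samples (exact permutation test, p = 0.00781, FDR = 0.0129). Both calls were lost with 0.5 CPM added, at 0.87 and 0.68, and kept their direction. In the Holstein cultures alone the means were 0.77 in PAX8 and 0.99 in PAX9, under 2-fold, and in the Angus cultures 1.55 and 1.77. The other windows of PAX9 averaged 0.146 CPM, near the 3-read limit of a single window. PAX6 was at 0.31 ± 0.27 with 7 of 8 samples above 0 (exact permutation test, FDR = 0.0231), under the 2-fold minimum. PAX3 was at 0.01 ± 0.41, with 5 samples below 0 and 3 above.

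**Figure D3:**
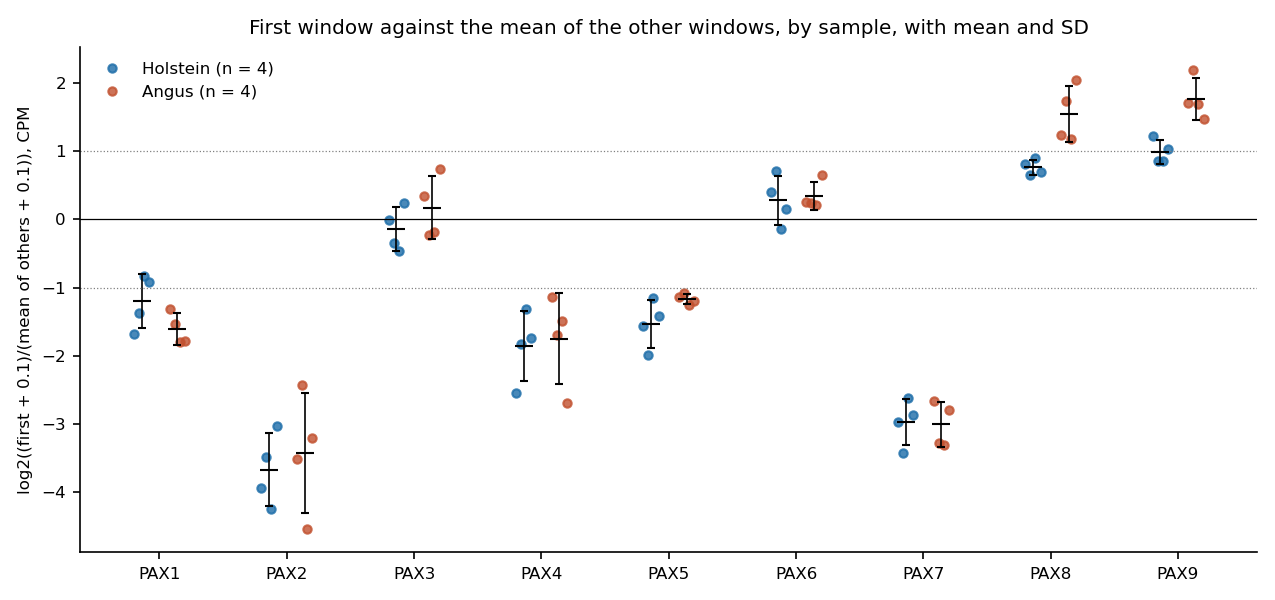
log2 ratio of the first window to the mean of the other windows, after adding 0.1 CPM to both, in each culture for the 9 PAX genes, with the mean and SD of each breed (n = 4); dotted lines mark a 2-fold ratio. PAX1, PAX2, PAX4, PAX5 and PAX7 lie below 0 and PAX8 and PAX9 above 0 in every culture, and in PAX8 and PAX9 the 4 Angus points lie above the 4 Holstein points.

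In PAX8 and PAX9 this ratio was also set apart by breed. In PAX8 it was 0.82, 0.66, 0.90 and 0.70 in the Holstein cultures and 1.23, 1.74, 1.18 and 2.04 in the Angus cultures. In PAX9 it was 1.23, 0.86, 0.85 and 1.03 in the Holstein cultures and 1.7, 2.19, 1.69 and 1.48 in the Angus cultures. In both genes every Angus culture lay above every Holstein culture, with means of 0.77 ± 0.11 in Holstein and 1.55 ± 0.41 in Angus for PAX8 and of 0.99 ± 0.18 and 1.77 ± 0.30 for PAX9 (SD, n = 4, exact two-sided permutation test, unadjusted p = 0.0286, the smallest that 4 against 4 allows). Over the 16584 genes the breeds did not overlap in 1.59% with Angus above and 1.04% with Holstein above. Neither gene passed the correction over all genes, with an adjusted value of 1 for both. At these shares no gene could pass it with the smallest p allowed, so the adjusted value does not bear on either gene. The difference in PAX9 rests on first windows of 5 to 26 reads. With 0.02 CPM added the p of PAX9 became 0.0571 (exact permutation test), and with 0.5 CPM added its difference between breeds (Holstein minus Angus) was -0.45. The other 7 genes overlapped between breeds, with PAX5 the nearest at p = 0.0857 (exact permutation test).

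Coding-exon windows were compared with the other windows of the same gene in the 7 PAX genes that had at least 2 of each kind. In 6 of them, all but PAX2, the coding-exon windows held more reads in 8 of 8 samples (exact sign-flip permutation test, p = 0.00781, FDR = 0.0116 over 10038 genes). By FDR alone 58.2% of all genes tested had higher and 24.9% lower coding-exon windows. Only PAX9, at 1.05 ± 0.43 on the log2 scale, also reached 2-fold, and its windows without a coding exon, at 0.0777 ± 0.0187 CPM, lay under the 3-read limit, so that its ratio depends on the CPM added (0.42 with 0.5 CPM). The others lay at 0.80 in PAX8, 0.53 in PAX3, 0.50 in PAX6, 0.47 in PAX5 and 0.27 in PAX7. With medians in place of means PAX6 was at 0.06 with 5 of 8 samples above 0 (exact permutation test, FDR = 0.839), and PAX7 and PAX9 held their direction in 7 of 8 samples. With the 2-fold minimum the background was 19.5% with higher and 2.44% with lower coding-exon windows. The PAX9 call was lost without Angus 1 (0.997) or Angus 2 (0.99), and at 0.63 when the first window was left out.

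PAX2 was called in the opposite direction, at -2.02 ± 0.63, and this came from the stacked windows, which hold no coding exon. Without them its coding-exon windows were above the others by 0.77 ± 0.24 in 8 of 8 samples (exact permutation test, FDR = 0.0116), under 2-fold, and by 0.76 with medians in place of means. PAX1 and PAX4 had too few windows without a coding exon to be tested. In PAX1 the only such window held 0.218 CPM, against a mean of 2.82 CPM over the coding-exon windows.

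The breed comparison was made in edgeR over all windows with at least 1 CPM in at least 4 samples, and a window was called at FDR < 0.1 and a fold change of at least 2. Of the 204 PAX windows 54 passed the filter, 25 of them in PAX7 and 14 in PAX5, and none in PAX3 or PAX9. No PAX window was called by the likelihood-ratio test, against 0.231% of all 115360 windows tested. At an unadjusted p under 0.05 there were 5 of 54 PAX windows, of which 1 was higher in Holstein cultures and 4 in Angus cultures, against 4.94% of all windows. The quasi-likelihood test and DESeq2 also called 0 PAX windows, with 4 each at an unadjusted p under 0.05. The log2 fold changes (Holstein minus Angus) of the 54 windows ran from -0.85 to 0.58, and 25 were above 0. Where there is no call, a difference smaller than the spread between 4 cultures was not detectable at this depth.

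The first window of PAX8 had the smallest p of the PAX windows that passed the filter. It held 1.39 ± 0.310 CPM in Holstein and 2.20 ± 0.860 CPM in Angus cultures (SD, n = 4), from 19, 33, 45 and 52 reads in the Holstein and 52, 79, 35 and 57 reads in the Angus cultures. The breeds overlapped in CPM through Angus 3 alone, the library with the smallest TMM factor. Scaled by TMM the Holstein cultures lay at 1.18 to 1.56 CPM and the Angus cultures at 1.74 to 2.61 CPM, which do not overlap, as in 2.63% of all windows tested. The difference was -0.75 ± 0.19 (SE) on the log2 scale, 1.68-fold higher in Angus, at FDR = 0.0297 (edgeR likelihood-ratio test), and it missed the call because it was under 2-fold. Its FDR was 0.144 with the quasi-likelihood test, 0.128 with DESeq2, 1 without TMM and 0.602 without the CPM filter. Without Holstein 2, Holstein 4, Angus 2 or Angus 4 it was 0.121, 0.315, 0.246 and 0.148. Summed over all its windows PAX8 did not differ, at 0.00 ± 0.11.

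Among the windows that passed the filter, the next smallest p values after PAX8 belonged to window 53 of PAX5 (chr8:61423187-61426186, no coding exon) and window 5 of PAX6 (chr15:63371257-63374256, exon 1). The PAX5 window held 1.57, 1.86, 1.89 and 2.36 CPM in the Holstein cultures and 0.663, 1.88, 1.04 and 1.02 CPM in the Angus cultures, a log2 difference of 0.58 ± 0.22 (edgeR, FDR = 0.626). Only Angus 2 reached the Holstein range, and without it the log2 difference was 0.85 (edgeR, FDR = 0.0994), still under 2-fold. Leaving out any other culture gave 0.38 (without Angus 1, edgeR, FDR = 0.869) to 0.69 (without Angus 3, edgeR, FDR = 0.335). The PAX6 window held 1.06, 1.17, 1.44 and 1.77 CPM in the Holstein cultures and 1.78, 1.5, 1.14 and 2.84 CPM in the Angus cultures, a log2 difference of -0.48 ± 0.20 (edgeR, FDR = 0.777). The breeds overlapped in both.

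Among the tested PAX windows the breeds overlapped in CPM in 54 of 54, against 1.31% of all windows tested that did not overlap. Over all 204 PAX windows 2 did not overlap, against 1.22% of all windows with a gene symbol. These windows, and window 25 of PAX5 and windows 2 and 16 of PAX8, were chosen for naming after their values were seen. They were window 6 of PAX3, higher in Angus at 0.184 against 0.0715 CPM, and window 47 of PAX5, higher in Holstein at 0.763 against 0.491 CPM. The PAX3 window holds so few reads that both means lie near the 3-read limit. In the fit without the CPM filter 14 of the 204 windows had an unadjusted p under 0.05, against 4.55% of all windows in that fit, and 0 were called. With TMM scaling, 5 of the 204 windows did not overlap, against 1.71% of all windows with a gene symbol: window 1 of PAX8 and window 6 of PAX3 with Angus above, and windows 25 and 47 of PAX5 and window 16 of PAX8 with Holstein above. Window 16 of PAX8 was at 0.818 ± 0.229 CPM in Holstein and 0.451 ± 0.150 CPM in Angus.

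The remaining first windows were below the filter and take their values from the fit without it. PAX9 was at -0.90 ± 0.31 (edgeR, unadjusted p = 0.00321, FDR = 0.694), from 0.408 ± 0.138 CPM in Holstein and 0.695 ± 0.206 CPM in Angus. PAX2 was at -1.14 ± 0.52 and PAX1 at 0.59 ± 0.27 (edgeR, unadjusted p = 0.0285 and 0.0278, FDR = 1 for both). The other first windows ranged from -0.48 in PAX3 to 0.21 in PAX7, each with an SE of 0.27 or more.

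Summed over all windows, no PAX gene differed between breeds by the likelihood-ratio test, against 0.0721% of 19417 genes, and every PAX gene had an FDR near 1. The quasi-likelihood test and DESeq2 called 0 PAX genes as well, and no PAX gene had an unadjusted p under 0.05 in the likelihood-ratio test. The log2 fold changes were 0.04 ± 0.15 (SE) in PAX1, -0.34 ± 0.24 in PAX9, -0.53 ± 0.34 in PAX2, 0.06 ± 0.11 in PAX5, -0.08 ± 0.16 in PAX3, -0.03 ± 0.14 in PAX7, 0.15 ± 0.20 in PAX4 and -0.23 ± 0.14 in PAX6. Only PAX2 stood beyond 0.4 in size. Without 1 culture it ran from -0.78 without Holstein 1 (edgeR, unadjusted p = 0.0172, FDR = 1) and -0.71 without Angus 4 (unadjusted p = 0.0395, FDR = 1) to -0.04 without Angus 3, and without its stacked windows it was 0.07.

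**Figure D4:**
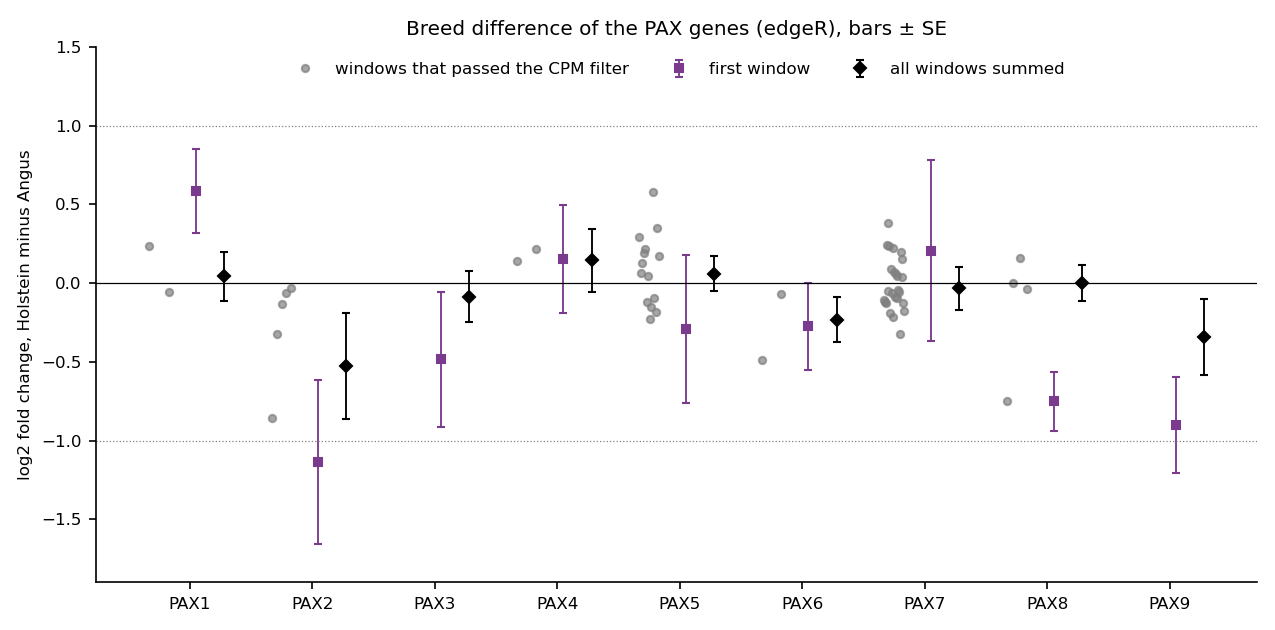
log2 fold change between breeds (Holstein minus Angus, edgeR) for the PAX genes: grey points are windows that passed the CPM filter, squares the first window and diamonds the reads summed over all windows, with bars of ± 1 SE; first windows other than that of PAX8 come from the fit without the filter, and dotted lines mark 2-fold. Only the first window of PAX2, on 2 to 15 reads, lies beyond 2-fold, and all summed values lie between -0.53 and 0.15.

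Of the 36 windows that flank the genes, 2 on each side, 4 carried the symbol of a neighbour: FSCN3 downstream of PAX4, ELP4 downstream of PAX6 and SLC25A21 downstream of PAX9. Upstream flanks had a median of 0.353 CPM (n = 18) and downstream flanks a median of 0.742 CPM (n = 18). The only flank given here with breed values, just upstream of PAX6, was not picked by a rule set in advance. It held 1.24 ± 0.253 CPM in Holstein and 1.73 ± 0.729 CPM in Angus (edgeR, log2 difference -0.57 ± 0.20, FDR = 0.479).

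Genes that work with PAX factors were described from 6 lists. Of 67 genes listed 62 were found, and TBX1, WNT4, TG, SOX2 and RAX were not analysed here. Their 1263 windows included 176 that passed the filter, and 1 of these was called, against 0.231% of all 115360 windows tested. A count of 1 is too small to set the lists apart from that share. The called window, chr11:95126785-95129784, is the first window of LHX2, a homeobox gene of the early eye field. It held 1.48 ± 0.664 CPM in Holstein and 3.29 ± 1.21 CPM in Angus (edgeR, log2 fold change -1.27, FDR = 8.23e-05). The study lists no differentially methylated region at this place, though its stated thresholds are the same. The fit here called 267 windows, more than the study lists, and the reason was not tested. Of 46 listed genes with enough windows, 12 had a lower and 2 a higher first window by the rule used for the PAX genes, for which the shares of all genes were 31.2% and 7.91%. The counts within single lists rest on 5 to 9 genes and are given beside the same background.

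In the network of EYA, DACH and sine oculis homeobox factors, which act with PAX proteins in organ formation, DACH2 was lowest at 0.170 CPM and SIX2 highest at 1.49 CPM, 8 genes had enough windows, and 0 were lower and 1 higher. Among somite, muscle and neural crest genes the lowest was MITF, the melanocyte regulator, at 0.113 CPM, and the highest MYF5, a myogenic factor, at 2.40 CPM, with 4 of 9 lower. Among genes of sclerotome, thymus and tooth, NKX3-2 held 0.137 CPM and FOXN1, the thymic epithelial regulator, 1.72 CPM, with 2 of 5 lower.

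Of the kidney, ear and thyroid genes WT1, a kidney regulator, was lowest at 0.151 CPM, with 3 of 9 lower. The B cell genes ran from CR2 at 0.133 CPM to MS4A1, which encodes CD20, at 1.43 CPM, with 1 of 8 lower. The eye and pancreas genes ran from ELP4, which neighbours PAX6, at 0.0629 CPM to INS, insulin, at 2.93 CPM, with 2 of 7 lower and 1, LHX2, higher.

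The genes whose summed reads ran most like those of PAX2, the member with most reads, were LOC513134, ZC3H6, LOC529992, ABCG1 and RAB6B, with Pearson correlations of TMM log2 CPM from 0.948 to 0.970 over the 8 samples and 12611 genes compared. Because PAX2 owed most reads to its stack, the same was done for PAX7, a choice made after its values were seen. SETD1B, PADI2, DENND3, KCTD2 and MRGPRF followed it most closely, at 0.993 to 0.994. The 8 points of each correlation share the differences between libraries in how far reads gather in few windows.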

How the data were processed

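MIRA-Seq libraries of un-treated dermal fibroblasts from 4 Holstein and 4 Angus heifers were used, grouped by the sample labels. Base calling used CASAVA 1.7 per the labels. The authors filtered reads, aligned them to UMD v3.1 with NextGENe 2.3.4 and deposited raw read counts per 3 kb window, with the coverage signal of each window, which is capped at a largest value; only the 8 tables of windows were used. Neither an input library nor the handling of duplicates was given in the sources used here. CPM were computed from the deposited counts with the total over all windows as library size.

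Windows, and gene sums, were compared between breeds with the likelihood-ratio test of edgeR 4.0.16 under R 4.3.3, after TMM scaling and with Benjamini-Hochberg adjustment, where 4 or more samples reached 1 CPM, and quasi-likelihood tests and DESeq2 1.42.0 were alternatives. An SE is the absolute log2 fold change over the root of the test statistic. Within-gene ratios took genes of at least 3 windows (coding-exon ratios, at least 2 windows of each kind) with on average at least 10 reads per sample, and 0.1 CPM was added. The tests were checked on simulated data with changes of at least 2-fold, so these checks do not cover smaller differences. P-values of the breed tests cover the spread between 4 cultures per breed. The sign-flip tests, of first windows, coding-exon windows and gene order, pooled the breeds, and their p-values cover the spread over all cultures. They do not cover the spread between the windows of a gene. The 3-read limit covers counting error only. The labels do not pair the animals, and the deviations of same-numbered animals over windows had a mean correlation of -0.0023.

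The members and the lists of related genes were chosen with earlier results of these data known. The text names each member's first and highest window, called windows, the 3 windows with the smallest p among those that passed the filter, in each list the genes with the highest and lowest first window (1 of these is not reported here), and the 5 genes most like PAX2. No sequence is shown, because no genome of this build was used here. A RefSeq table was not used for coordinates, since its assembly differs.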

Additional observations from a re-analysis of the deposited data

Results flagged for a closer look

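In 74 groups of 4 cultures of one breed that were examined, 4 held a culture far from the other 3. The rule flags 1 in 20 separate groups by chance, but these groups share libraries and reads, so the count cannot be set against that rate. In 3 of the 4 flagged groups the culture was Holstein 1, one of the libraries with most reads in few windows. Its mean over windows was 0.491 CPM in PAX5, against 0.785 to 0.836 CPM in the other Holstein cultures. In PAX6 it was 0.374 CPM against 0.667 to 0.707 CPM, and in PAX8 it was 0.521 CPM against 0.887 to 0.903 CPM. The fourth was Angus 4, in which the log2 ratio of the first window of PAX6 to its other windows was 0.65, against 0.22 to 0.25 in the other Angus cultures.

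The ratio of the first window to the other windows differed between the breeds in PAX8 and PAX9. Holstein minus Angus was -0.78 on the log2 scale in PAX8 and -0.77 in PAX9 (exact permutation test, unadjusted p = 0.0286 in both). Neither passed the adjustment over 16584 genes, at an adjusted value of 1, but no gene could have passed it at this smallest possible p. Because the breeds did not overlap in either gene, leaving out 1 culture could not turn the direction. The difference then ran from -0.90 to -0.62 in PAX8 and from -0.87 to -0.63 in PAX9. With 0.5 CPM added the PAX9 difference was -0.45, and with 0.02 CPM added it was -0.89 with p = 0.0571 (exact permutation test). These comparisons were chosen after the data were seen.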

How the results depend on the processing

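No PAX window was called under 17 of 18 alternatives, leaving out each culture (0 to 0) and the replicate block (0) included, and 1, the first window of PAX8, was called with no fold change minimum. No summed gene was called under any of 15 alternatives, each left-out culture (0 to 0) included. Same-numbered animals were not paired by the data, and the replicate block changed no call. The 7 genes called for the first window fell to 4 with 0.5 CPM added and stayed at 7 to 7 without each culture. Single-breed fits were not run as calls, since 4 samples allow no p below 0.125. The 2 genes called for coding-exon windows fell to 0 with medians and to 1 with the first window left out, with 0.5 CPM added or without the stacked windows of PAX2, and lay between 1 and 2 without each culture.

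Directions turned in small differences between breeds, none of them called. Without TMM, which moves the median of all genes from -0.02 to 0.15, PAX3 moved to 0.0668 and PAX7 to 0.12. PAX2 moved to 0.0709 without its stacked windows. PAX8 lay at -7.8e-05 with the quasi-likelihood test and at -0.0045 with the replicate block. Without 1 culture each, the breed difference ran from -0.042 to 0.19 in PAX1, -0.20 to 0.0563 in PAX3, -0.0317 to 0.32 in PAX4, -0.0948 to 0.0364 in PAX7 and -0.0494 to 0.0413 in PAX8. The first-window ratio of PAX3 turned to -0.0055 with 0.02 CPM added and ran from -0.0909 to 0.0814 without each culture. The coding-exon ratio of PAX2 turned to 0.76 with medians and to 0.77 without the stacked windows. The TMM orders of the genes were the same, and the level of PAX7 moved to 2.04 CPM with reads on placed chromosomes as the library size. Window 1 of PAX8 ran from -0.85 to -0.63. The cause of the other changes was not tested. The stack, TMM order and breed-ratio alternatives were chosen after seeing the data.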
